A study of Danio rerio with 16 samples.

Results

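Among 798513 windows of the zebrafish genome, each 500 bp long, 5591 windows (0.7002%) were highly methylated in the blastula and gastrula, lost 5-methylcytosine (5mC) by 24 hours post fertilisation (hpf), and lost more by 36 hpf. They were selected on their measured levels in these same libraries. A window entered the comparison with 5 or more CpGs shared by both data tables and 30 or more calls in each of the 8 groups of cell type and stage, with replicates summed. The level of a stage was the share of methylated calls among all calls, summed over primordial germ cells (PGCs), soma and replicates. A chosen window had a level of 80% or more at 4 and 7 hpf, was 20 or more percentage points lower at 24 hpf than at 7 hpf, and was more than 10 points lower again at 36 hpf. The falls between stages are therefore a description of how the windows were chosen, and no test of them is given. The chosen windows made up 0.770% of the 726463 windows at 80% or more in both early stages, and 71.5% of the 7824 of those that had lost 20 or more points by 24 hpf.

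DNA methylation in vertebrates sits mainly on the cytosine of CpG dinucleotides, where maintenance methyltransferase copies the mark to the new strand after replication. Levels fall either when the mark is not copied as cells divide or when TET enzymes oxidise 5mC and the base is replaced. In zebrafish, enhancers that become active as organs form are known to lose methylation around the pharyngula stage. Zebrafish PGCs are set aside by maternal germ plasm, migrate during gastrulation and somitogenesis, and have reached the future gonad by the later stages sampled here. Which of the windows overlap genes or enhancers was not analysed here, and windows are named by position on danRer10 with bases counted from 1, on the reading that the tables count from 0.

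All libraries were whole-genome bisulfite libraries, where conversion turns unmethylated cytosines into bases read as thymine, and there were 16 of them: PGCs and soma, each at 4, 7, 24 and 36 hpf, with 2 replicates a group. The embryos of every group carried the kop-egfp-f-nanos3′UTR transgene (the line's name in the study's methods adds cry:dsred), which puts a fluorescent protein into PGCs, and both populations were sorted by FACS. Soma is the sorted remainder of the embryo and mixes many cell types, so its level in a window is an average over them, and the cell type labels were not checked against expression markers here. The study's methods call the replicates of 7, 24 and 36 hpf biological and those of 4 hpf technical. The spread and the test at 4 hpf may therefore cover technical variation only. The methods also state that embryos older than 24 hpf were kept in N-phenylthiourea to inhibit pigmentation. Stage and this treatment can therefore not be told apart between 24 and 36 hpf. Embryos were raised at different temperatures, and the methods do not give the temperature of each group. Total calls per library lay between 25967678 and 250228561. The chosen windows held a median of 1819 calls over all libraries, against 1529 for all windows.

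In PGCs the mean level over the chosen windows was 96.3% ± 0.425 in the blastula (4 hpf), 95.2% ± 0.637 in the gastrula (7 hpf), 64.9% ± 2.73 by 24 hpf and 41.7% ± 1.17 by 36 hpf (mean of the library means, SD, n = 2). In soma it was 96.2% ± 0.320, 93.6% ± 1.68, 57.9% ± 2.52 and 43.7% ± 4.91 at the same stages. By 36 hpf the windows thus held well under the level they had in the gastrula in both cell types, while the mean over all windows changed little. There, PGC levels went from 89.2% at 7 hpf to 87.0% at 24 hpf and 85.1% at 36 hpf, and soma levels went from 88.8% to 86.3% and 85.1%. A small earlier fall, from 4 to 7 hpf, was seen in all 4 pairs of libraries, by 0.936 and 1.24 points in PGCs and by 1.57 and 3.49 points in soma. Over all windows the fall from 4 to 7 hpf was at most 0.300 points in a soma pair. The most similar sets, described below, also had a small fall in every pair of libraries.

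**Figure D1:**
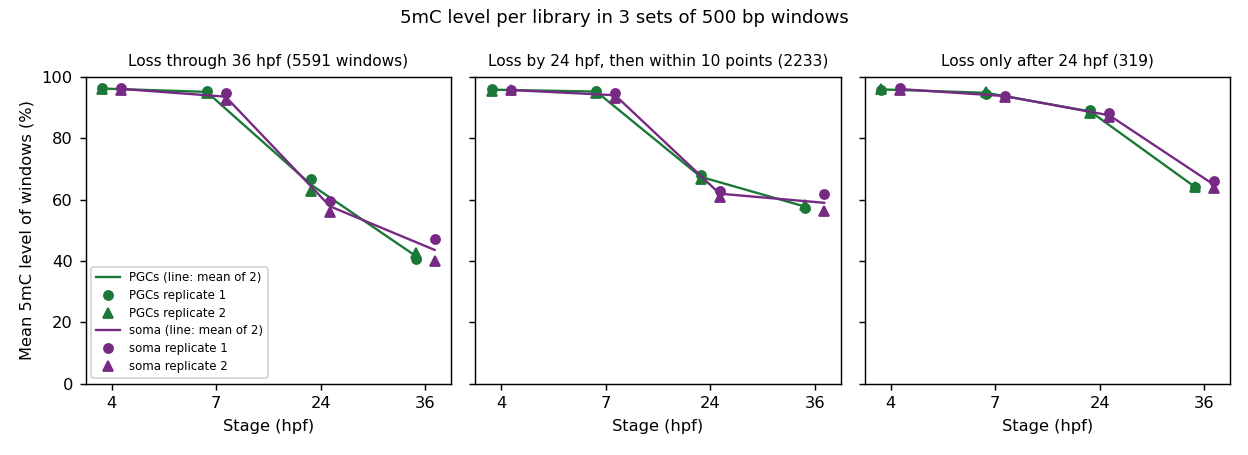
Mean 5mC level of windows (%, y axis) by stage (hpf, x axis, stages evenly spaced) in each library, for the windows losing 5mC through 36 hpf and the 2 most similar sets. Circles are replicate 1, triangles replicate 2, and lines join the means of the replicates. In the first panel PGCs lie above soma at 24 hpf (66.8% and 63.0% against 59.6% and 56.1%), and the soma replicates lie apart at 36 hpf (47.1% and 40.2%).

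The library values show the size of the replicate error. At 24 hpf the means over the chosen windows were 66.8% and 63.0% in the PGC libraries and 59.6% and 56.1% in the soma libraries. At 36 hpf they were 40.8% and 42.5% in PGCs and 47.1% and 40.2% in soma. The groups did not overlap at 24 hpf, with both PGC libraries above both soma libraries, and they did overlap at 36 hpf. The soma libraries of 36 hpf were 6.95 points apart at these windows, replicate 1 being higher in 74.5% of them, although they were 0.618 points apart over all windows. All other pairs of replicates differed by at most 3.86 points at the chosen windows.

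The windows covered a wide range of end points. At 36 hpf the summed level had a median of 44.7% and quartiles of 33.9% and 53.6%, with a lowest value of 4.08% and a highest of 66.5%. Only 310 windows (5.54%) ended under 20%, 1825 (32.6%) ended from 20% to under 40%, 3053 (54.6%) from 40% to under 60%, and 403 (7.21%) at 60% or more. Most of the windows were therefore at an intermediate level at the last stage sampled. In sorted cells an intermediate level can be a mix of cells or of alleles, and these cannot be told apart. The fall from 7 to 24 hpf had a median of 31.1 points (quartiles 24.5 and 40.8), and that from 24 to 36 hpf a median of 16.6 points (quartiles 13.5 and 20.6). Windows that had lost 20 to under 30 points by 24 hpf went on to lose a median of 16.01 points, and those that had lost 50 or more went on to lose 16.5 points. The rule used both losses and removed every later loss of 10 points or less, so these medians are no comparison of the classes.

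The limit of 10 points cut a continuous range. The windows just inside it, chr22:37343501-37344000, chr18:26941001-26941500 and chr11:31313501-31314000, had later losses of 10.0013, 10.0045 and 10.0060 points. Just outside it lay chr5:62928001-62928500, chr13:35963001-35963500 and chr3:25584501-25585000, with 9.9975, 9.9956 and 9.9910 points. The last 3 belong to the 2233 windows that lost 20 or more points by 24 hpf and at most 10 afterwards, and 2016 of those were also lower at 36 than at 24 hpf.

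Single CpGs moved with their windows. Of 51976 CpGs in the chosen windows with 10 or more calls at every stage, 96.4% were lower at 36 than at 24 hpf, against 60.6% of CpGs in all windows methylated at 80% or more early on. In 4140 of 5523 windows with 5 or more such CpGs (74.96%), every one of them was lower, against 7.11% of the early methylated windows. The choice used this fall in the same calls, so these shares only describe how it was spread over the CpGs. The CpGs of a window also became less alike. The SD between CpGs of a window had a median of 3.15 points at 7 hpf, 14.8 points at 24 hpf and 17.04 points at 36 hpf. The windows that lost 20 or more points by 24 hpf and at most 10 afterwards were much alike, with 3.11, 15.1 and 16.6 points. In the early methylated windows it was 3.12, 4.23 and 4.41 points. At 36 hpf 15.9% of the CpGs in the chosen windows were under 20% and 8.19% were still at 80% or more, against 1.23% and 18.8% at 24 hpf. These values contain counting error, which is larger at intermediate levels.

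The loss from 7 to 36 hpf reached 92.8 points over all chosen windows, and the windows named here come from the 3771 with 15 or more calls in every library. The strongest loss among those was at chr3:59869501-59870000, a window with 13 CpGs. Its PGC libraries read 98.1% and 94.2% at 7 hpf, then 50% and 25.7% at 24 hpf, then 4.59% and 13.3% at 36 hpf. Its soma libraries read 97.9% and 97.1%, then 7.39% and 10.6%, then 8.65% and 8.13%. Soma had therefore reached its low level by 24 hpf, at which both PGC libraries were higher. All 13 CpGs, which lie between positions 59869848 and 59869990, took part. Their levels with replicates summed ranged from 30.4% to 42.9% in PGCs and from 0% to 17.2% in soma at 24 hpf, where a CpG at 0% with 22 calls allows a level of up to 13.6% (a floor of 3 calls, for counting error only). At 36 hpf they ranged from 3.03% to 12.1% in PGCs and from 3.23% to 17.9% in soma.

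The next 4 of these 3771 windows by loss from 7 to 36 hpf also ended low. At chr23:27062001-27062500 (5 CpGs) PGC levels were 45.0% and 43.6% at 24 hpf and 7.96% and 2.44% at 36 hpf, and soma levels were 28.0% and 27.6%, then 13.6% and 4.76%. At chr5:51341501-51342000 (6 CpGs) PGC levels were 56.2% and 41.5%, then 7.94% and 11.1%, and soma levels were 7.81% and 5.77%, then 8.65% and 1.82%. Both windows were higher in both PGC libraries than in both soma libraries at 24 hpf. At chr17:30357501-30358000 (8 CpGs) PGC levels were 41.5% and 47.5%, then 5.28% and 5.06%, and soma levels were 17.3% and 18.5%, then 16.2% and 3.26%. At chr24:9097501-9098000 (10 CpGs) PGC levels were 50.5% and 50.8%, then 8.55% and 11.5%, and soma levels were 44.4% and 10.1%, then 13.7% and 4.17%. In the last window the soma replicates of 24 hpf lay far apart, but both were below the PGC libraries. At 4 and 7 hpf no library of these 5 windows was under 88.0%, and the fewest calls in a library of any of them was 17.

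**Figure D2:**
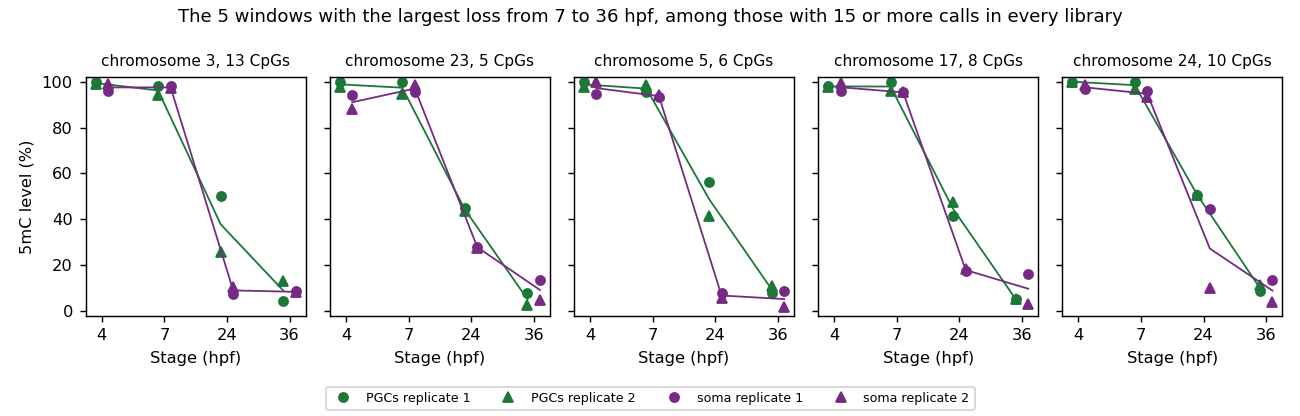
5mC level (%, y axis) by stage (hpf, x axis, stages evenly spaced) in every library for the 5 windows with the largest loss from 7 to 36 hpf among the 3771 with 15 or more calls in every library, labelled by chromosome and number of CpGs. Points are libraries and lines join the replicate means. PGCs stand above soma at 24 hpf in all 5 windows, for example at 56.2% and 41.5% against 7.81% and 5.77% on chromosome 5.

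A rule applied to noisy values picks windows whose errors happen to fit it, so the loss was also measured in libraries that took no part in the choice. When the rule was applied to replicate 1 alone, with 15 calls per group, it chose 3364 windows. In replicate 2 their mean level began at 96.0% at 4 hpf and 93.4% at 7 hpf and then fell to 58.8% by 24 hpf and to 41.6% by 36 hpf. The fall from 24 to 36 hpf was 17.2 points in the unused replicate and 18.6 points in the calls used for the choice. In the unused replicate 97.9% of the windows were lower at 36 hpf, and 78.4% were more than 10 points lower. With the replicates exchanged, 5450 windows were chosen, and replicate 1 fell from 63.9% to 45.9%, by 17.9 points. There 97.7% of the windows were lower, and 79.9% were more than 10 points lower. A small fall was common in all windows, where the summed loss from 24 to 36 hpf had a median of 1.06 points (quartiles -0.256 and 2.72). In the calls used for this second choice the later loss was 19.0 points. The losses were thus close in both directions, although those of the unused replicate are means of library means and the others come from summed calls. The mean hides the cell types: in replicate 1 the PGC library went from 67.3% to 42.7% and the soma library from 60.4% to 49.1%. In replicate 2 they went from 62.3% to 42.9% and from 55.3% to 40.4%.

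The cell types were exchanged in the same way. Windows chosen in PGCs alone (5550) fell in soma from 56.6% at 24 hpf to 43.9% at 36 hpf, by 12.7 points, and 92.7% of them were lower. Windows chosen in soma alone (3936) fell in PGCs from 66.0% to 43.7%, by 22.4 points, and 99.1% were lower. Of the windows chosen in PGCs alone 56.5% lost more than 10 points in soma, and of those chosen in soma alone 91.1% did so in PGCs. The later loss was present in the other cell type either way and was larger when measured in PGCs.

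**Figure D3:**
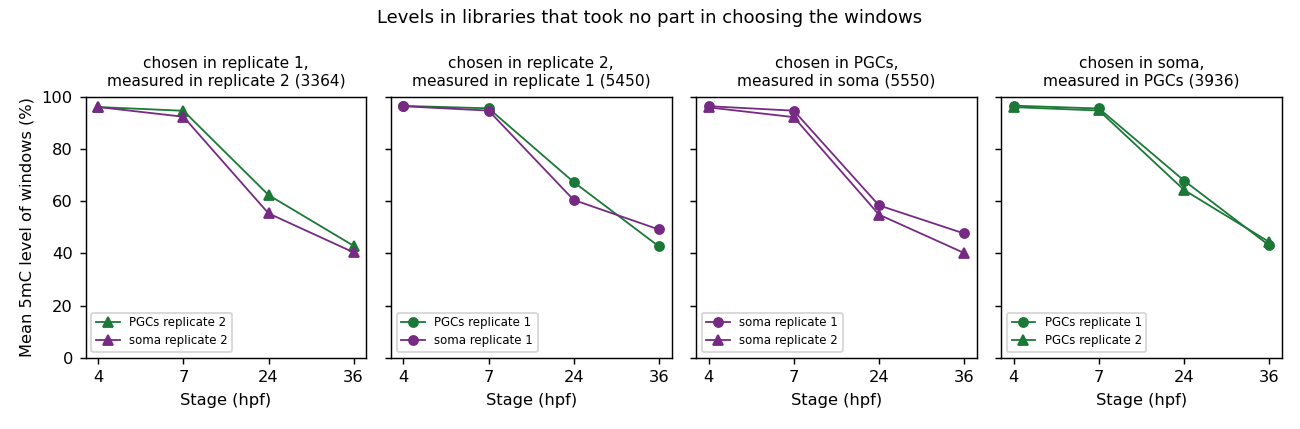
Mean 5mC level (%, y axis) by stage (hpf, x axis, stages evenly spaced) in libraries that took no part in choosing the windows; the number of windows is in brackets above each panel. Every line is a replicate series of a cell type (circles, replicate 1; triangles, replicate 2). All lines fall between 24 and 36 hpf, for example from 62.3% to 42.9% in the PGCs of replicate 2 in the first panel.

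PGCs had a higher level, of 5mC with any 5hmC, than soma in these windows at 24 hpf. The choice did not compare the cell types, but it used the summed calls of both at this stage. Soma weighed more in that sum, with 902563 and 954108 calls in these windows against 530643 and 747930 in PGCs. The excess is therefore not independent of the choice. It was 7.03 points in replicate 2 for windows chosen in replicate 1, and 6.84 points with the replicates exchanged. In windows chosen from PGCs alone it was 6.40 points, and in those chosen from soma alone 5.61 points. How much of the excess the choice made was not tested. The mean difference came to 7.17 points (replicate 1) and 6.88 points (replicate 2), against 0.627 and 0.634 points over all windows. These values set libraries of the same replicate number against each other, although the numbers were not taken to pair samples. The mean was 7.02 points. Without pairing, the SDs of both groups gave an SD of 3.71 points for the difference of a PGC and a soma library. The error of the mean is smaller than that. Unless the numbers pair samples, the closeness of the 2 values is no measure of the error. At 4 hpf the differences were 0.176 and 0.0263 points, and at 7 hpf they were 0.811 and 2.28 points, PGCs being higher each time. Both PGC libraries were above both soma libraries at 24 hpf in 2271 of the 5591 windows (40.6%), whereas this was so in 21.7% of all windows. The opposite order held in 222 windows (3.97%), against 11% of all windows. With 2 libraries a group an exact permutation test of a mean cannot give a p under 0.333, so no test of the mean is given.

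The difference was larger in classes of larger loss, which were cut on the summed level and are given as a description. In windows that had lost 20 to under 30 points by 24 hpf (2600 windows) PGCs were 5.08 points above soma at that stage, followed by 7.05 points for a loss of 30 to under 40 (1511 windows), 9.43 points for 40 to under 50 (905 windows) and 11.95 points for 50 or more (575 windows). The replicates gave 5.09 and 5.07 points in the first class and 12.2 and 11.7 points in the last. The number of CpGs made little difference, with 7.36 points in windows of 5 to 7 CpGs and 6.48 points in windows of 20 or more.

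**Figure D4:**
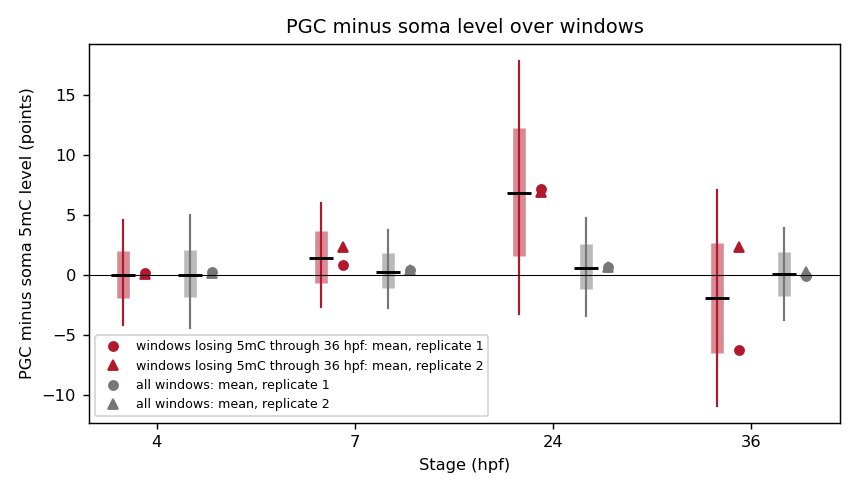
PGC minus soma 5mC level in percentage points (y axis) by stage (hpf, x axis) for the windows losing 5mC through 36 hpf and for all windows. Thin bars run from the 10th to the 90th percentile over windows, thick bars between the quartiles, dashes are medians, and points are the mean over windows in each replicate. At 24 hpf the chosen windows have a median of 6.80 points and replicate means of 7.17 and 6.88, and at 36 hpf the replicate means lie on opposite sides of 0.

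Window by window, the difference between the cell types did not pass the threshold. A quasi-binomial model with limma's moderated dispersion was fitted to all 798513 windows, with adjusted p-values over all of them. At an adjusted p under 0.05 it called no chosen window at any stage. Over all windows it called 1 window at 4 hpf (0.000125%) and 2 windows at 7 hpf (0.00025%). No window was called at 24 hpf (0%) and 1 window at 36 hpf (0.000125%). At an unadjusted p under 0.05 PGCs were higher at 24 hpf in 932 of the 5591 chosen windows (16.7%, against 5.53% of all windows) and lower in 21 (0.376%, against 1.44%). Fisher's exact test, which covers the counting error of reads only, was passed in both replicates by 23 of the chosen windows at 24 hpf, all with PGCs higher, of 93 among all windows (0.0116%). edgeR called 0 of the chosen windows and 0 of all windows at 24 hpf, with an unadjusted p under 0.05 in 581 of the chosen windows (10.4%, against 4.11% of all windows). The median standard error of the difference at 24 hpf was 7.01 points. The 3 windows with the largest excess described next, of 36.6 to 42.1 points, were not called.

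The largest PGC excess at 24 hpf among windows with 15 or more calls in every library was at chr5:51341501-51342000, described above, with a mean difference of 42.1 points. At chr20:30246001-30246500 (10 CpGs) PGC levels were 54.7% and 55% at 24 hpf and soma levels were 21.5% and 11.9%. At chr9:13497501-13498000 (10 CpGs) they were 69.0% and 65.2% against 29.5% and 31.5%. Neither window had overlapping groups at that stage. Of the same windows, the smallest p was at chr8:23744001-23744500 (16 CpGs), with 52.1% and 57.8% in PGCs against 29.6% and 22.6% in soma, a fitted difference of 29.0 ± 5.45 points (SE). The limma model gave it an unadjusted p of 1.9e-05 and an adjusted p of 0.477. The next smallest were at chr23:45975501-45976000, with 77.6% and 81.7% against 42.8% and 57.6%, and at chr6:14313001-14313500, with 86.3% and 81.8% against 49.1% and 47.6% (limma, adjusted p = 0.477 for each).

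The windows with the lowest PGC level relative to soma, again of those with 15 or more calls in every library, had smaller differences. At chr14:10856001-10856500 (7 CpGs) PGC levels at 24 hpf were 50.8% and 64.2% and soma levels were 84.7% and 80.9%, a mean difference of -25.2 points. At chr5:63103501-63104000 (6 CpGs) they were 53.3% and 44.3% against 64.3% and 79.0%, a difference of -22.9 points. At chr8:4228501-4229000 (6 CpGs) PGC levels of 44.2% and 44.4% stood against soma levels of 89.2% and 44.8%. The last value rested on a single soma library: without replicate 1 of soma at 24 hpf the fitted difference was -0.50 points.

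The loss was divided differently over the steps in the cell types. From 7 to 24 hpf the chosen windows lost 28.8 and 31.8 points in PGCs and 35.2 and 36.4 points in soma (replicates 1 and 2). From 24 to 36 hpf they lost 25.96 and 20.5 points in PGCs and 12.5 and 15.9 points in soma. Both PGC values of the later step were above both soma values, and both values of the earlier step were below. The choice used the summed calls of both cell types at 7, 24 and 36 hpf, so this division is not independent of it. How much of it the choice made was not tested. By 24 hpf soma had completed 71.7% ± 2.95 of its loss from 7 to 36 hpf, and PGCs 56.7% ± 5.82 (SD, n = 2). The same order was present over all windows, at 65.9% ± 7.19 in soma and 54.3% ± 1.41 in PGCs, on losses of 3.73 and 4.07 points. These losses and shares join libraries of the same replicate number across stages, although the numbers were not taken to pair samples. Their SDs depend on that joining, and the soma libraries of 36 hpf alone were 6.95 points apart at the chosen windows.

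In single windows this difference in timing did not pass the threshold either. The contrast of the change from 24 to 36 hpf between cell types called 0 of the chosen windows and 0 of all windows (0%) at an adjusted p under 0.05, and that of the change from 7 to 24 hpf called 0 of the chosen windows and 1 of all windows (0.000125%). At an unadjusted p under 0.05 the later loss was larger in PGCs in 1147 chosen windows (20.5%, against 4.85% of all windows) and smaller in 23 (0.411%, against 2.19%). In the 2233 windows that lost 20 or more points by 24 hpf and at most 10 afterwards, these shares were 14.2% and 0.806%. The earlier loss was smaller in PGCs in 556 (9.94%), against 3.35% of all windows, and larger in 33 (0.590%, against 1.82%). In the same 2233 windows the shares were 8.11% and 0.806%. The choice used the calls of these stages, so the shares are not independent of it. All windows lost a median of only 1.06 points after 24 hpf, which leaves little loss in which the cell types could differ. Both contrasts share the 24 hpf libraries with each other and with the comparison at 24 hpf, so they are not separate evidence. edgeR called 0 of the chosen windows for the change after 24 hpf, with an unadjusted p under 0.05 in 499 (8.93%, against 3.57% of all windows). For the earlier change it called 0, with 363 (6.49%, against 3.82%). edgeR compares log ratios of methylated to unmethylated calls, and the limma model compares levels in percentage points. A difference of changes is not the same quantity on these scales, so their shares are not directly comparable. In 4503 of the chosen windows (80.5%) both replicates of both cell types were lower at 36 than at 24 hpf, against 17.9% of all windows, a fall that the choice itself used. In 27 windows (0.483%, against 5.93%) both PGC replicates were lower while both soma replicates were higher, and in 4 windows (0.0715%, against 3.83%) the reverse was seen. A window that rose in a cell type could hardly meet the rule, so nothing is read from these shares.

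Under the same minimum of calls, the smallest p for a different change after 24 hpf was again at chr8:23744001-23744500. Its PGC libraries fell from 52.1% and 57.8% to 12.8% and 16.98%, while its soma libraries read 29.6% and 22.6% at 24 hpf, then 30.2% and 20.9% at 36 hpf. The fitted difference of the changes was -42.2 ± 6.52 points (SE; limma, adjusted p = 0.302). Across its 16 CpGs, with replicates summed, PGC levels ranged from 42.9% to 68.4% at 24 hpf and from 6.52% to 24.4% at 36 hpf, and soma levels from 17.02% to 43.1% and from 21.7% to 33.3%. Every CpG fell in PGCs, and the ranges of soma overlapped. At chr8:3081001-3081500 (10 CpGs) PGCs fell from 63.6% and 57.4% to 20% and 27.2%, with soma at 33.8% and 35.4%, then 41.0% and 33.6%. At chr7:54267501-54268000 (16 CpGs) they fell from 59.3% and 63.4% to 26.7% and 37.9%, with soma at 38.5% and 41.0%, then 42.5% and 36.1%. For both of these the adjusted p was 0.315 (limma).

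At 36 hpf the comparison of the cell types depended on the replicate. The mean PGC minus soma difference came to -6.29 points (replicate 1) and 2.31 points (replicate 2), with a mean of -1.99 points. PGCs were higher in 24.9% of the windows in replicate 1 and in 59.4% in replicate 2, against 48.5% and 51.4% of all windows. The windows that lost 20 or more points by 24 hpf and at most 10 afterwards had a similar split, of 30.9% and 57.9%. Both PGC libraries were below both soma libraries in 1103 windows (19.7%, against 15.1% of all windows) and above them in 526 (9.41%, against 15.7%). In that set of smaller later loss the shares were 17.7% and 10.6%. At an unadjusted p under 0.05 PGCs were lower in 599 windows (10.7%, against 3.53% of all windows) and higher in 110 (1.97%, against 3.66%). In the set of smaller later loss these shares were 8.06% and 2.42%. Fisher's exact test, passed in both replicates, called 5 of the chosen windows, all with PGCs lower, of 88 among all windows (0.011%). edgeR called 0 of them, with an unadjusted p under 0.05 in 177 (3.17%, against 2.47% of all windows), a share near that of all windows. Leaving out soma replicate 2 raised the chosen windows called by the limma model at 36 hpf from 0 to 18 (0.322%), 16 of them with PGCs lower, with 299 of all windows called (0.0374%), 129 of them with PGCs lower. Those with a different change after 24 hpf went from 0 to 8 (0.143%), with 63 of all windows called (0.00789%). In that fit a single soma library of 36 hpf is assumed to vary like the libraries of the other groups.

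The most similar sets were the 2233 windows that lost 20 or more points by 24 hpf and at most 10 afterwards, and 319 windows that lost under 10 points by 24 hpf and 20 or more afterwards. The first of these had also a PGC excess at 24 hpf, of 5.25 and 5.71 points against 7.17 and 6.88. Soma had there completed 91.8% ± 6.58 and PGCs 74.1% ± 3.87 of the loss from 7 to 36 hpf by 24 hpf (SD, n = 2, same-numbered libraries joined across stages). In PGCs the windows of that set still lost 10.98 and 8.49 points after 24 hpf, and in soma 1.18 and 4.77 points. The 319 windows of later loss had a PGC excess at 24 hpf of 1.03 and 1.44 points. From 4 to 7 hpf they fell by 1.25 and 0.956 points in PGCs and by 2.37 and 2.21 points in soma. The 2233 windows fell by 0.626 and 0.626 points in PGCs and by 1.10 and 2.32 points in soma. In the chosen windows these falls were 0.936 and 1.24 points, and 1.57 and 3.49 points. The small early fall was thus not particular to the chosen windows. These sets were cut from the same measurements by the same levels, and the differences between them were not tested.

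The windows were chosen for their fall at 24 and 36 hpf, so the trough at their centre is fixed by the choice. The loss was also seen in the windows next to them. Neighbouring windows at a distance of 500 bp, where they held enough CpGs, had a mean summed level of 94.7% at 7 hpf, 78.9% at 24 hpf and 70.0% at 36 hpf on the side of lower coordinates (2296 windows), and 94.5%, 78.6% and 69.9% on the other side (2392 windows). At 1000 bp the levels were 92.9%, 87.6% and 84.2% on the lower side, so that most of the trough lay within a window to each side. From there to 5000 bp the windows lost between 7.45 and 10.1 points from 7 to 36 hpf, more than the 4.07 points of PGCs and 3.73 points of soma over all windows. Of the windows at 500 bp below and above, 24.3% and 23.3% were themselves chosen. At 2500 bp this share was 7.12% and 7.19%, at 5000 bp it was 5.24% and 5.11%, and in all windows it was 0.7002%. PGCs were 3.08 and 3.09 points above soma in the neighbours at 500 bp at 24 hpf, and between 0.978 and 1.40 points above it at 1000 bp and beyond.

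**Figure D5:**
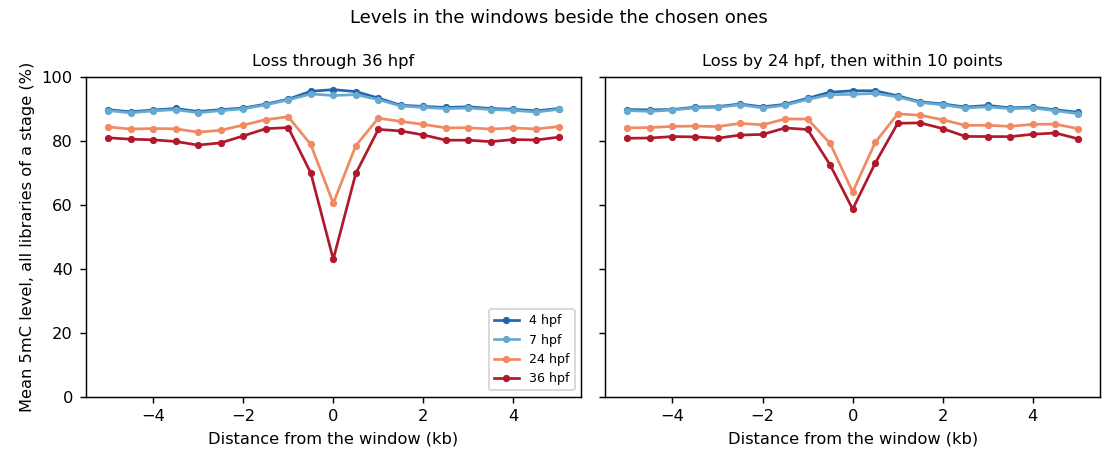
Mean summed 5mC level (%, y axis) of windows at distances up to 5 kb (x axis) from the windows losing 5mC through 36 hpf and from those losing it by 24 hpf and at most 10 points more afterwards. Lines are the 4 stages. The trough of the first set deepens from 60.5% to 43.0% between 24 and 36 hpf, and the windows at 500 bp take part in it with 70.0% and 69.9% at 36 hpf. The choice itself used the fall at the centre.

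Runs of chosen windows were short. Joined over gaps of up to 500 bp, the windows formed 4964 runs, of which 4391 held a single window, 530 held 2, and 43 held 3 or more. The longest runs had 5 windows. The first, chr3:53286501-53289500 with 31 CpGs, fell in PGCs from 47.2% and 50.6% at 24 hpf to 24.9% and 35.7% at 36 hpf, and in soma from 46.5% and 46.3% to 38.2% and 25.4%. The second, chr22:18704501-18707500 with 49 CpGs, fell from 60.2% and 58.3% to 35.7% and 39.0% in PGCs and from 56.4% and 54.6% to 43.9% and 33.2% in soma. A run of 4 windows at chr25:18210501-18212500 (27 CpGs) fell from 46.8% and 54.7% to 22.6% and 23.3% in PGCs and from 37.9% and 38.5% to 27.4% and 27.0% in soma. Both cell types fell in both replicates of all 3 runs.

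The windows were found on all 25 chromosomes but not at equal rates. There were 7.00 chosen per 1000 windows in the whole genome, with the highest rate on chromosome 22 (9.90, 250 windows) and the lowest on chromosome 4 (3.95, 146 windows). Of the windows of chromosome 4, 144 lay among the 17745 before 30 Mb (8.11 per 1000) and only 2 among the 19181 beyond it (0.104 per 1000). The distal part of this chromosome is known in zebrafish for its repeats and its heterochromatin. Within 500 kb of the first or last window of a chromosome there were 45 (3.57 per 1000).

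In CpG content the chosen windows resembled the rest, with a median of 8 shared CpGs in both. The share with 20 or more CpGs was lower, at 2.25% against 5.86% of all windows and 4.60% of those methylated early on. Their coverage was somewhat higher, with a median of 218 calls per CpG over all libraries against 191. Most were far from unmethylated regions. The nearest of the 46897 windows that were under 20% at both early stages lay at a median distance of 27500 bp, against 25500 bp for all windows methylated at 80% or more early on, and 1.502% against 1.43% had such a window within 1000 bp. All 4 libraries of 24 hpf were above all 4 of 36 hpf in 3207 of the chosen windows (57.4%), against 6.72% of all windows, a contrast that the choice itself used.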

How the data were processed

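PGCs and soma sorted from transgenic zebrafish embryos were profiled by whole-genome bisulfite sequencing. Per the study's methods and the labels, the authors trimmed reads with fastp 0.12.5, aligned them by WALT to danRer10 and lambda DNA, took out duplicates by Picard 2.3.0 and counted calls with MethylDackel, merging the strands of a CpG. The deposited values are counts of methylated calls and of all calls for each CpG and library. There is a table for each of the replicate numbers, listing the CpGs that had calls in all its libraries, so the shallowest library sets the list. Column names gave the cell type and stage, and the table gave the replicate. Positions were read as counting from 0, as MethylDackel writes them, and are printed counted from 1. This was not checked against a danRer10 sequence, and counting from 1 in the tables would make every printed position 1 base too high. Lambda DNA read as methylated in 0.233% to 0.452% of calls in the libraries of replicate 1. In replicate 2 only 50 to 221 lambda calls a library were listed. They read as methylated in 4.58% of 131 calls in PGCs of 7 hpf and in 4% of 50 calls in PGCs of 36 hpf. In the other libraries of replicate 2 the share was 0% to 0.704%. With so few calls, whether conversion differed between these libraries was not tested.

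The 10260021 nuclear CpGs in both tables were summed in windows of 500 bp. Windows needed 5 CpGs and 30 calls per group. The members and lists were chosen with earlier results of these data known. Levels are means over windows of the library levels, with SD over 2 replicates. The study's methods call the replicates biological at all stages but 4 hpf, without saying whether they came from separate clutches. The p-values therefore measure only the spread between these libraries. The test was a quasi-binomial model of calls with a level per cell type and stage, fitted to all 16 libraries, with the dispersion moderated by limma 3.58.1 (R 4.3.3), 8 residual degrees of freedom, of which 2 come from the technical replicates of 4 hpf, and Benjamini-Hochberg adjustment over all windows. Reads are not independent molecules, and the raw dispersion had a median of 2.39 in the chosen windows and 1.15 in all. The test was checked on simulated calls with the real coverage and the same assumed scatter between libraries in every window. The simulated raw dispersion had a median of 2.15 in the chosen windows, and in this simulation the test was somewhat liberal. There 7.38% of the windows without a difference had an unadjusted p under 0.05 at 24 hpf, and 46 of 390 calls were false. In 600 chosen windows the level at 24 hpf was first set to a single shared value. Of those then given a PGC level 20 points lower the test called 4%, and of those given 40 points 68%. Most differences of 20 points would therefore not be called. These shares hold for that setting, with its 390 calls, whereas no window was called at 24 hpf in the real data. The real excesses of 36.6 to 42.1 points were not called, so the share of 68% may not hold for the real data. Alternatives were edgeR 4.0.16, Fisher's exact test in each replicate (adjusted p under 0.01 in both), other minimums, grids and subsets, and leaving out each library. Contrasts of the quasi-binomial model were in percentage points, and those of edgeR in log ratios of methylated to unmethylated calls. Other steps used Python 3.11.15 (numpy 2.4.6, pandas 2.3.3, numba 0.67.0). Windows named in the text were, among 3771 with 15 or more calls in every library, the 5 with the largest loss from 7 to 36 hpf, the 3 with the highest and the 3 with the lowest PGC minus soma level at 24 hpf, and the 3 with the smallest p for that difference and for the change from 24 to 36 hpf. Among all chosen windows they were the 3 longest runs and the 3 windows on each side of the 10 point limit.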

Additional observations from a re-analysis of the deposited data

Results flagged for a closer look

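In 3 of the named windows both PGC replicates moved in the opposite direction to both soma replicates between 24 and 36 hpf. At chr20:30246001-30246500 PGCs fell from 54.7% and 55% to 11.7% and 22.6%, while soma read 21.5% and 11.9%, then 24.4% and 12.2%, a difference of the changes of -42.4 points (limma, adjusted p = 0.442). At chr22:37343501-37344000, the window just inside the limit, PGCs fell from 52.6% and 60.8% to 19.5% and 16% and soma rose from 24.1% and 15% to 38.0% and 23.9%, a difference of -55.3 points (adjusted p = 0.327), with as few as 12 calls in a library. At chr14:10856001-10856500 the order was reversed, PGCs reading 50.8% and 64.2%, then 62.2% and 66.2%, and soma 84.7% and 80.9%, then 66.9% and 51.0%, a difference of 26.1 points (adjusted p = 0.622). None of the 3 passed the limma test of the difference. Such opposite moves occurred in 31 of the 5591 chosen windows, 27 with PGCs falling (0.483%, against 5.93% of all windows) and 4 with PGCs rising (0.0715%, against 3.83%), and the rule itself made them unlikely.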

How the results depend on the processing

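The number of chosen windows lay between 4048 and 5755 with 60 or 15 calls per group, windows of 1000 bp, a shifted grid, equal weights for libraries or CpGs, replicate 2 alone for 5450, or PGCs alone for 5550. It was 3936 from soma alone, 3364 from replicate 1 alone, 2234 with 10 or more CpGs and 3493 with a later loss of more than 15 points. Without each library in turn it ranged from 5154 to 6072, and 86.5% to 99.96% of the chosen windows were chosen again. The PGC excess at 24 hpf stayed between 5.61 and 7.03 points under the other settings and between 5.10 and 8.95 points without each library of the stage. At 36 hpf the difference of -1.99 points changed sign to 0.625 points for windows chosen in soma alone and to 2.51 points for windows chosen in replicate 1 and measured in replicate 2, and it ranged from -5.46 to 1.49 points without each library, being positive without soma replicate 1. The loss after 24 hpf in libraries not used for the choice was 17.2 points in replicate 2, 17.9 points in replicate 1, 12.7 points in soma and 22.4 points in PGCs.

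Same-numbered libraries did not deviate together at every stage (correlations of 0.0117, 0.247, 0.233 and 0.196 from the first to the last stage, over all windows), so the numbers were not taken to pair the samples. Without pairing, the SDs of both groups gave SDs of 3.71 points at 24 hpf and 5.05 points at 36 hpf for the difference of a PGC and a soma library over the chosen windows. The errors of the mean differences are smaller than these. With the replicate block the mean differences were 7.02 ± 0.204 points at 24 hpf and -1.99 ± 6.08 points at 36 hpf (SD of the same-numbered differences). The limma model then called 13 of all windows at 4 hpf, and 23 of all windows and 1 chosen window at 36 hpf. Chosen windows with an unadjusted p under 0.05 went from 953 to 1324 at 24 hpf and from 709 to 977 at 36 hpf. With the dispersion taken without the 4 hpf libraries it again called 0 chosen windows at 7, 24 and 36 hpf and for the change after 24 hpf. The adjusted p of the 9 windows named at 24 hpf then went from a range of 0.477 to 0.688 to one of 0.834 to 0.883 (limma). With only the libraries of the stage it called 0 windows at 4, 7 and 36 hpf, and with 60 calls per group 0 at 4 hpf. Fisher's exact test called 71, 45, 93 and 88 of all windows in the order of the stages, and 0, 0, 23 and 5 of the chosen ones. edgeR called 3 of all windows at 4 hpf, 0 at 36 hpf and, as an alternative added after seeing the data, 1 for the change after 24 hpf. Without each library the calls over all windows ranged from 1 to 152 at 4 hpf, from 1 to 23 at 7 hpf, from 0 to 13 at 24 hpf, from 0 to 299 at 36 hpf and from 0 to 63 for the change after 24 hpf. Those of the chosen windows ranged from 0 to 2 at 24 hpf (2 without PGC replicate 2), from 0 to 18 at 36 hpf and from 0 to 8 for the change after 24 hpf, the last 2 highest values being without soma replicate 2 of 36 hpf. In the windows named for a difference between cell types, 236 of 238 values kept their sign and their side of the threshold and 2 passed it, at chr8:23744001-23744500 and chr8:3081001-3081500 without that same library (adjusted p = 0.0229 and 0.0416, limma). The cause of these changes was not tested. The median of 8 CpGs per chosen window was 11 with all CpGs of the replicate 2 table.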

Other observations

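The share of neighbouring windows that were themselves chosen did not fall steadily with distance. It was 24.3% and 23.3% at 500 bp below and above a chosen window, 5.78% and 5.88% at 1000 bp, 5.28% and 5.44% at 1500 bp, 7.12% and 7.19% at 2500 bp, 6.90% and 6.90% at 3500 bp, and 5.24% and 5.11% at 5000 bp, each over 1709 to 2392 windows with enough CpGs. The mean level at 4 hpf of the same neighbours went from 95.6% and 95.5% at 500 bp to 89.8% and 90.2% at 5000 bp. The counts of each distance share windows with those of the other distances, and no test was made.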
